A study of Oncorhynchus mykiss with 69 samples.

Results

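Solute carriers are membrane proteins that move amino acids, sugars, ions, metals, vitamins, nucleotides and drugs across the plasma membrane or the membranes of organelles. Their genes were taken as every gene whose RefSeq symbol began with slc and a digit, or with slco, in the deposited tables of 3 rainbow trout cell lines. By this rule 154 genes were members, out of 190 such symbols in the RefSeq annotation and of 35945 genes listed in at least 1 of the 6 fold-change tables, and 36 of the 154 stood in all 6. How genes entered a table is not stated. With methylmercury the tables held 97 members in the gill line, 102 in the liver line and 101 in the gut line, and with fluoxetine 91, 108 and 99. The names slc7a6os, slc9a3r1a and slc9a3r1b belong to genes named after a neighbour or a binding partner, which are not carriers, and were kept because the rule names them. Many trout carriers are known only by a locus number and are outside the rule, and copies such as slc5a6a and slc5a6b, left from a genome duplication, may share reads.

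RTgill-W1 is a gill line, RTL-W1 a liver line and RTgutGC, spelled RTgutCC in the labels, a gut line, and each was exposed for 24 h. Methylmercury, an organic mercury compound, was given at 5 concentrations with 2 libraries each and 2 control libraries per line. Its concentrations are 0.25, 2.5, 25, 125 and 250 on the scale of the tables, which is 250 times that of the sample titles (0.001 to 1), and no unit is stated. Fluoxetine, an antidepressant that blocks the serotonin transporter, was given at 1.6, 4, 8, 20, 40, 100, 200, 500 and 1000 ppb with 1 library each, beside 2 controls labelled ctrl and H2O. In all 69 libraries were read, and nothing says whether replicates came from separate cultures. The p-values thus measure the spread between libraries, which may be technical. In the authors' fluoxetine F-test that spread is between the 2 differently labelled controls alone, as each concentration had 1 library. The estimated reads in the tabulated genes were 7.74 M to 11.51 M with methylmercury. Each pair of libraries gave 1 value, from its group means, which stands for a typical library and not for the sum of the pair. Each treated fluoxetine library had between 1.83 M and 7.67 M, and the fluoxetine controls were not estimated.

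The cell type was checked with marker lists. In the control cells of the methylmercury experiment, the listed fibroblast markers, 4, 4 and 3 of 8, had log2 levels from 9.83 to 17.15 in the gill line, from 4.35 to 19.91 in the liver line and from 8.04 to 16.45 in the gut line. Of 8 epithelial markers, cldn1 and esrp1 were listed in the gill line at 9.21 and 4.25 and in the liver line at 9.01 and 2.95, and esrp1 in the gut line at 4.20. Of 7 enterocyte markers none was listed in the gut line, while vil1 was listed in gill at 2.24 and vil1 and cdx1b in liver at 6.21 and 0.90. Of 9 hepatocyte markers tf, encoding transferrin, was listed in the liver line at 12.48 and fga, encoding a fibrinogen chain, in the gut line at 10.34. In the fluoxetine controls tf was listed in gill, liver and gut, at 10.26, 12.65 and 11.47. Of 7 gill ionocyte markers slc12a2 was listed in gill, liver and gut, at 13.56, 14.05 and 12.92. The listed leukocyte and endothelial markers lay between 2.80 and 6.59. The 3 listed fibroblast markers of the gut line were higher at 250, and 2 of the 4 listed in the gill line were lower. None of the 4 in the liver line passed. In the liver line tf fell by 1.16 on the log2 scale. There cdx1b was higher by 4.06 (adjusted p = 0.019), from a control at or near 0 counts. In the gut line fga was higher by 2.15 (adjusted p = 0.000204) and slc12a2 was lower (-0.59, adjusted p = 0.00148). The part of these markers in the results on carriers was not tested. In such bulk samples fewer cells of a type and less RNA per cell cannot be told apart.

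Amino acid carriers of the Slc1, Slc6, Slc7, Slc36, Slc38 and Slc43 families bring neutral, cationic or anionic amino acids into the cell or move them between lysosome and cytosol. In mammals the large neutral amino acid transporter encoded by SLC7A5 also carries the complex of methylmercury with cysteine, which resembles methionine. Slc4 and many Slc26 proteins exchange or cotransport bicarbonate and other anions and help to set intracellular pH, which gill cells use in acid-base and ion balance. Slc39 proteins bring zinc into the cytosol and Slc30 proteins take it out. Slc2 proteins carry hexoses or urate, and Slc37 proteins carry sugar phosphates over the membrane of the endoplasmic reticulum. The serotonin transporter Slc6a4 takes serotonin up from outside the cell.

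Below, a level is the mean log2 normalised count of a group, and a change is the log2 difference from the control group minus that of the median gene of the same table, with its SE. Because the median gene itself fell at 250, by 0.89 in the gill line, 0.78 in the liver line and 1.01 in the gut line, a gene with an unchanged level has a positive change. A change passed the test when its p-value, from the variance recovered from the authors' table and adjusted over all genes of the table by the Benjamini-Hochberg method, was under 0.05. Single methylmercury libraries were not recovered, so overlap between single libraries was not assessed and the SE stands in for it.

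At 250 of methylmercury more carrier genes stood above the median gene than below it in the gill and liver lines, and about as many above as below in the gut line. In the gill line 26 of 97 members (26.8%) were higher, beside 17% of all genes, and 18 (18.6%) were lower, beside 19.6%. Of the liver line, 27 of 102 (26.5%) were higher, beside 15.7%, and 11 (10.8%) lower, beside 13.3%. The gut line had 30 of 101 (29.7%) higher, beside 21.9%, and 29 (28.7%) lower, beside 25.9%. The shares of higher carriers thus stood above the background in the 3 lines, and those of lower carriers within 3 percentage points of it. Among genes that carry a symbol rather than a locus number, 15.9%, 16.7% and 19.1% were higher and 25.4%, 16.5% and 34.4% were lower in the gill, liver and gut lines. The median change of the members was 0.19, 0.39 and -0.12, or 0.30, 0.39 and 0.05 with groups at 0 counts set to their bound, by construction against 0 for all genes.

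These counts depend on the centring. With the fold changes as deposited, 21 members were higher (21.6%, beside 11.2% of all genes) and 41 lower (42.3%, beside 49.6%) in the gill line. The liver line then had 19 higher (18.6%, beside 9.81%) and 39 lower (38.2%, beside 44.7%), and the gut line 21 higher (20.8%, beside 11.7%) and 51 lower (50.5%, beside 54.8%). Centred on genes above the median mean expression, which moves the zero line by -0.19, -0.10 and -0.26, the gill line had 33 higher (34%, beside 21.4%) and 12 lower (12.4%, beside 13.7%). On that scale liver had 29 higher (28.4%, beside 16.9%) and 10 lower (9.8%, beside 10.3%), and the gut line 35 higher (34.7%, beside 28.9%) and 15 lower (14.9%, beside 17.9%). Under both, the share of higher carriers was above that of all genes in each line and the share of lower carriers below it.

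The response grew with concentration. No member passed at 0.25 by this moderated test, where 0.0221%, 0.0345% and 0.0549% of all genes did in the gill, liver and gut lines, or at 2.5, where 0.0354%, 0.0431% and 0.0503% did. At 25 there was 1 member in the gill line, slc4a5a (0.372% of all genes passed in either direction), none in the liver line (0.069%), and slc1a4 and slc25a5 in the gut line (0.988%). At 125 the gill line had 21 members higher (10.2% of all genes) and 6 lower (6.22%), the liver line 20 (8.42%) and 4 (2.35%), and the gut line 15 (8.86%) and 5 (7.24%). As deposited, the counts at 125 were 19 higher (8.89% of all genes) and 30 lower (36.2%) in gill, 14 (5.03%) and 26 (24.4%) in liver, and 11 (7.06%) and 48 (45.3%) in gut.

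**Figure D1:**
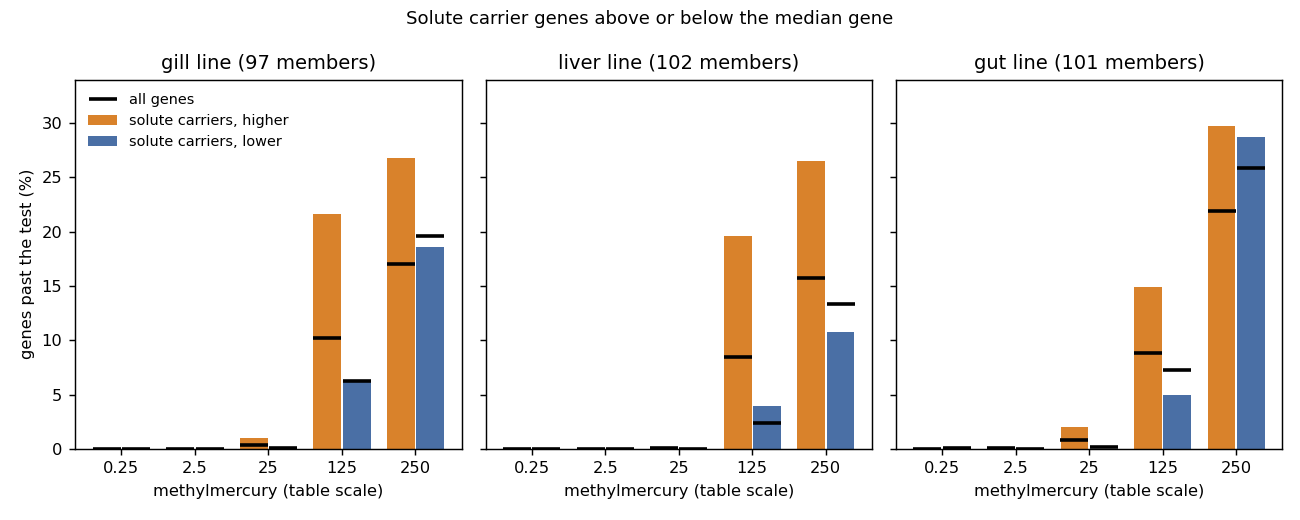
Share of solute carrier genes, in percent of those listed, that passed the test above (orange) or below (blue) the median gene at each methylmercury concentration, with black marks for the share of all genes. At 250 the orange bars stand at 26.8%, 26.5% and 29.7%, above the marks for all genes, and at 0.25 and 2.5 there are no bars.

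The authors' own F-test over all concentrations, which takes fold changes as deposited and so counts genes that fell with the median gene, passed 65 of 97 members in the gill line (67%, beside 56.8% of all genes), 52 of 102 in the liver line (51%, beside 45.8%) and 70 of 101 in the gut line (69.3%, beside 63.4%). Among genes with a symbol it passed 67.8%, 54.8% and 74.5%, so the carriers' shares were near that background. Some members that passed the contrast at 250 did not pass the authors' F-test, among them slc4a1b, slc5a6a, slc5a6b, slc9a7, slc25a26 and slc39a10 in the liver line. With every group first set relative to its median gene, an F-test passed 38, 30 and 48 members, beside 27.8%, 19.1% and 40.5% of all genes. Of the 141 members listed for methylmercury in at least 1 line, 92 passed the contrast at 250 in at least 1 line. Of these 50 were only higher (35.5% of the 141, beside 26.6% of the 32288 genes listed in at least 1 line), 40 only lower (28.4%, beside 25.1%), and 2, slc29a3 and slc25a26, higher in one line and lower in another (1.42%, beside 1.18%).

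Of the 58 carriers listed in the 3 lines, 9 were higher at 250 in each of them (15.5%, beside 5.74% of all genes listed in the 3 lines): slc17a9b, slc2a9l1, slc37a4a, slc40a1, slc4a5a, slc52a3, slc5a6b, slc6a15 and slc9a7. One, slc49a4, was lower in each (1.72%, beside 9.22%). One, slc29a3, was higher in one line and lower in another (1.72%, beside 2.13%). With the fold changes as deposited, slc9a7 in the gut line was at -0.10 instead, and in the liver line slc9a7 and slc5a6b did not pass (adjusted p = 0.1 and 0.056). The 9 carry different substrates: bicarbonate, iron, sugars or urate, riboflavin, other vitamins, amino acids, nucleotides and sodium with protons.

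**Figure D2:**
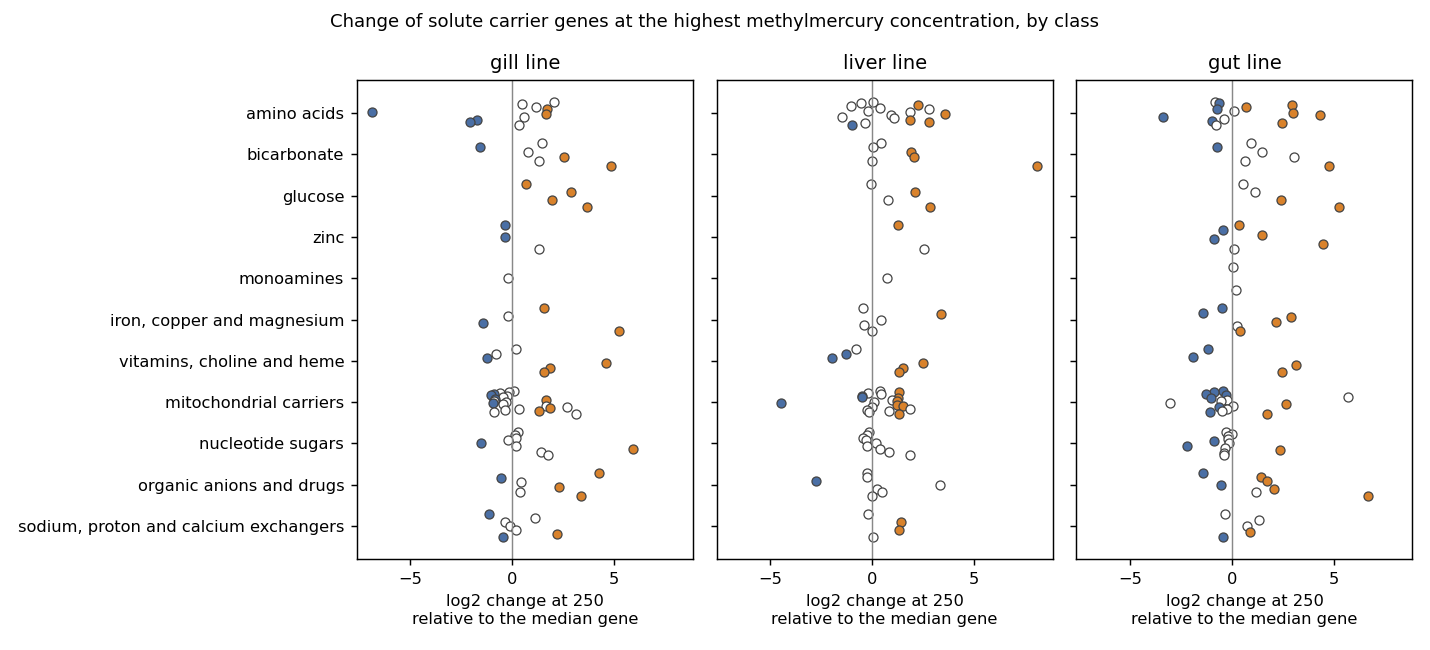
Change of solute carrier genes at 250 of methylmercury, as log2 difference from control relative to the median gene, for 11 of 21 classes (rows), which hold 107 of the 141 genes listed, and 3 lines (panels). Filled points passed the test (orange higher, blue lower), open points did not, and groups at 0 counts are drawn at their fitted value, such as slc43a1a at -6.88 in the gill line.

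Slc4 and Slc26 genes were grouped by family as bicarbonate carriers, and not each of them need carry bicarbonate. At 250 in the gill line 2 of 6 listed were higher (17% of all genes) and 1 lower (19.6%). In liver 3 of 6 were higher (15.7%) and none lower (13.3%). In gut 1 of 6 was higher (21.9%) and 1 lower (25.9%). Here and below, such shares in brackets are of all genes, and no class was tested against them. The lower gene in gill and gut was slc26a2, for a sulfate and anion exchanger. The gene of this class with the largest change, slc4a5a, encodes a protein that in mammals cotransports sodium with bicarbonate. Its level in the gill line was 7.29 in control and 7.53, 7.64, 9.40, 11.38 and 11.24 at 0.25, 2.5, 25, 125 and 250. The liver line had 3.22 in control and 3.93, 3.11, 5.80, 8.71 and 10.56. The gut line had 4.77 in control and 3.60, 4.43, 3.87, 5.29 and 8.53. The gill line was thus high from 25 on, the liver line was higher at each step from 2.5 on, and the gut line was high at 250 alone.

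The change of slc4a5a at 250 was 4.84 ± 0.18 (SE) in the gill line, a 28.6-fold rise relative to the median gene (adjusted p = 3.56e-06). It was 8.11 ± 0.44 in the liver line, 277-fold (adjusted p = 4.39e-05), and 4.77 ± 0.44 in the gut line, 27.3-fold (adjusted p = 0.000134). The liver line differed from the gill line by 3.28 ± 0.48 (adjusted p = 0.00225) and from the gut line by 3.34 ± 0.63 (adjusted p = 0.00224), while gill and gut differed by 0.07 ± 0.48 (adjusted p = 0.947). The liver control level was near that of 0 counts, so the liver fold and its differences from the other lines rest on few control counts. No bound was set for them. At 25 the gill change was 2.16 (adjusted p = 0.0104), and the liver change of 2.69 did not pass (adjusted p = 0.202).

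Another bicarbonate carrier, slc4a3, which in mammals exchanges chloride for bicarbonate, was higher by 2.53 ± 0.15 in the gill line and 2.07 ± 0.27 in the liver line. Gut levels were 5.71 in control and 5.55, 3.08, 6.81, 6.57 and 7.73 with concentration, and its change of 3.04 ± 1.11 did not pass (adjusted p = 0.0585). Beside these, slc4a1b, a copy of the gene for the anion exchanger of red cells, was higher in the liver line (1.90 ± 0.40). The sulfate and anion exchanger gene slc26a2 was lower in the gill line (-1.58 ± 0.22) and in the gut line (-0.71 ± 0.16), where it did not pass with centring on the more expressed genes (adjusted p = 0.0602). The sodium bicarbonate cotransporter gene slc4a4a did not pass in any line, with changes of 1.33 ± 0.61, -0.01 ± 0.16 and 0.63 ± 1.02 in gill, liver and gut.

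Iron, copper and magnesium carriers had 2 of 4 genes higher (17% of all genes) and 1 lower (19.6%) in the gill line. In liver 1 of 5 was higher (15.7%) and none lower (13.3%). In gut 3 of 6 were higher (21.9%) and 2 lower (25.9%). The gene slc40a1 encodes ferroportin, the iron exporter. Its level in the gill line was 10.28 in control and 10.30, 10.32, 11.85, 14.09 and 14.64 with concentration. The liver line had 12.96 in control and 12.82, 12.87, 13.19, 14.57 and 15.56. The gut line had 12.95 in control and 12.92, 12.92, 12.97, 13.51 and 14.84. Each line was highest at 250, and at 25 the gill change of 1.62 did not pass (adjusted p = 0.198).

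The change of slc40a1 at 250 was 5.26 ± 0.35 in the gill line (adjusted p = 3.01e-05), 3.38 ± 0.19 in the liver line (adjusted p = 5.07e-05) and 2.90 ± 0.10 in the gut line (adjusted p = 1.5e-06). It was larger in the gill line than in the liver line by 1.88 ± 0.40 (adjusted p = 0.0118) and than in the gut line by 2.36 ± 0.36 (adjusted p = 0.00283). The iron importer gene slc11a2 was listed in the gill line only and was higher by 1.57 ± 0.17. The copper carrier gene slc31a2 was lower in the gill line (-1.42 ± 0.17) and the gut line (-1.41 ± 0.12), and its -0.44 ± 0.18 in the liver line did not pass (adjusted p = 0.113). The copper importer gene slc31a1 was lower in the gut line (-0.48 ± 0.14), though not with centring on the more expressed genes (adjusted p = 0.238).

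Sugar carriers had 4 of 4 listed genes higher in gill (17% of all genes), 2 of 4 in liver (15.7%) and 2 of 4 in gut (21.9%). None was lower (19.6%, 13.3% and 25.9%). The gene slc2a9l1 is named after SLC2A9, which in mammals carries urate. Its level in the gill line was 8.98 in control and 9.08, 9.02, 9.50, 10.59 and 10.99. The liver line had 9.66 in control and 9.53, 9.64, 9.86, 10.58 and 11.01, and the gut line 8.61 and 8.79, 8.59, 8.99, 9.59 and 10.02. Each line was highest at 250, with changes there of 2.90 ± 0.13, 2.12 ± 0.18 and 2.42 ± 0.14. Gill exceeded liver by 0.78 ± 0.22 (adjusted p = 0.0334), and gut did not differ past the threshold from gill (0.48 ± 0.19 apart, adjusted p = 0.092) or liver (0.30 ± 0.22 apart, adjusted p = 0.386).

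The gene slc37a4a encodes the carrier that takes glucose 6-phosphate into the endoplasmic reticulum, a step of glucose release. Its level in the gill line was 6.58 in control and 6.13, 6.73, 7.46, 9.30 and 9.37, and in the liver line 6.54 and 6.82, 6.91, 7.04, 7.83 and 8.62. The gut line had 3.02 in control and 4.65, 5.36, 4.66, 0.80 and 7.25, with 0 counts at 125. Its change at 250 was 3.68 ± 0.16, 2.85 ± 0.15 and 5.24 ± 1.06, and the gut line had the widest error and a control near the level of 0 counts. The gill line also had slc37a2, another sugar phosphate carrier gene, higher by 1.93 ± 0.24 and the glucose carrier gene slc2a12 higher by 0.66 ± 0.21, which was -0.24 as deposited. For liver the change of slc37a2, 0.76 ± 0.24, did not pass (adjusted p = 0.0519).

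Amino acid carriers had 2 of 10 genes higher (17% of all genes) and 3 lower (19.6%) in the gill line. In liver 4 of 16 were higher (15.7%) and 1 lower (13.3%). In gut 5 of 13 were higher (21.9%) and 4 lower (25.9%). The gene slc6a15, for a sodium-coupled carrier of branched-chain amino acids and proline, was higher in each line. Its level was 12.28 in control and 12.35, 12.32, 12.39, 12.84 and 13.07 in the gill line, 2.86 and 3.32, 3.11, 3.62, 4.46 and 5.67 in the liver line, and 11.31 and 11.22, 11.45, 11.60, 12.39 and 13.32 in the gut line. The liver levels were the lowest throughout, with a control near the level of 0 counts, although each line was normalised separately. The changes at 250 were 1.68 ± 0.13, 3.59 ± 0.75 and 3.02 ± 0.10, while in the liver line the authors' F-test did not pass (adjusted p = 0.0906). Gut exceeded gill by 1.34 ± 0.16 (adjusted p = 8.11e-05), and liver did not differ past the threshold from gill (1.91 ± 0.76 apart, adjusted p = 0.156) or gut (0.57 ± 0.76 apart, adjusted p = 0.654).

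Carriers of other amino acid systems were higher in the liver and gut lines. The gene slc1a4, for a sodium-dependent exchanger of alanine, serine and cysteine, went from 13.39 in control to 13.36, 13.46, 13.72, 14.28 and 15.35 in the gut line. The liver line went from 10.54 to 10.68, 10.68, 10.89, 11.44 and 11.99. Its changes at 250 were 2.97 ± 0.09 in gut and 2.23 ± 0.27 in liver, and it was not listed in the gill line. The cationic amino acid carrier gene slc7a3a went from 11.41 to 12.86 in gut, with a change of 2.46 ± 0.11, and from 10.56 to 11.64 in liver, with 1.86 ± 0.24.

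For slc7a5, the large neutral amino acid transporter, the methylmercury tables held the liver line only. Its level was 7.82 in control and 8.23, 7.97, 8.83, 9.15 and 9.83, highest at the top concentration. The change at 250 was 2.78 ± 0.41, 6.88-fold (adjusted p = 0.00237). For gut, slc6a16a, named after an orphan transporter of the Slc6 family, went from 5.17 in control to 6.09, 5.41, 5.46, 6.37 and 8.48, a change of 4.33 ± 0.62. Gill slc36a4 was higher by 1.70 ± 0.15. Gut slc38a6 was higher by 0.70 ± 0.24, which was -0.31 as deposited.

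The amino acid carrier with the largest fall was slc43a1a, whose mammalian relative takes up large neutral amino acids without sodium. Its level in the gill line was 8.47 in control and 8.35, 8.10, 7.98 and 6.73 up to 125. At 250 it was 0.70, which is 0 counts in both libraries. The liver line had 5.29 in control and 3.08, 5.37, 5.90, 6.69 and 6.37, and the gut line 6.05 and 5.99, 6.37, 5.62, 5.99 and 5.16. No group of the liver or gut lines was at 0 counts.

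Against a floor of 3 counts per library, the gill change of slc43a1a at 250 was -4.08 or lower (adjusted p = 4.68e-06 for the fitted -6.88 ± 0.28). At 125 the gill change was -1.29 (adjusted p = 0.0204). The change at 250 was 1.86 ± 1.38 in the liver line (adjusted p = 0.36) and 0.12 ± 0.34 in the gut line (adjusted p = 0.796). With the gill group at its floor and the other line at its estimate, the gill change was 4.20 log2 units below gut and 5.94 below liver. The SE of the fitted differences was 0.44 for gut and 1.41 for liver. The tests of the fitted differences gave adjusted p = 2.36e-07 and 0.0071.

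Other amino acid carriers fell in some lines, though not all of them were listed in each line. With methylmercury slc6a7 was listed in the gut line only, and slc7a6 in gill and liver. For gill, slc7a6, encoding an exchanger of cationic and neutral amino acids, went from 6.84 in control to 6.83, 6.49, 6.03, 5.84 and 3.87, a change of -2.08 ± 0.36. The proline carrier gene slc6a7 of the gut line went from 7.34 to 6.84, 7.31, 6.07, 4.40 and 2.96, a change of -3.37 ± 1.03. The gene slc7a10b was lower in gill (-1.73 ± 0.54) and gut (-0.99 ± 0.31), although neither passed with centring on the more expressed genes, and had 1.08 ± 0.45 in liver without passing. The liver line's slc7a7 was lower by -1 ± 0.27. For gut, slc1a3a, a glutamate carrier gene, had -0.65 ± 0.15 and slc38a9, for the lysosomal arginine sensor, -0.71 ± 0.18, and neither passed with centring on the more expressed genes (adjusted p = 0.0612 and 0.0813).

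Zinc carriers had 3 listed genes in the gill line, none higher (17% of all genes) and 2 lower (19.6%). Of 2 in the liver line, 1 was higher (15.7%) and none lower (13.3%). Of 6 in the gut line, 3 were higher (21.9%) and 2 lower (25.9%). The importer gene slc39a1 in the gut line went from 12.67 in control to 12.71, 12.64, 12.90, 13.18 and 13.14, a change of 1.49 ± 0.10. The importer gene slc39a10 in the liver line went from 11.42 to 11.44, 11.50, 11.74, 11.99 and 11.93, a change of 1.29 ± 0.16. Both were about as high at 125 as at 250.

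The gene slc39a8, for an importer of zinc, manganese and cadmium in mammals, was near the detection limit. Its level in the gut line was 1.86 in control and 2.99, 1.74, 2.71, 3.61 and 5.34, a change of 4.49 ± 1.17 (adjusted p = 0.0168), while the authors' F-test there did not pass (adjusted p = 0.169). The liver change of 2.53 ± 0.90 did not pass (adjusted p = 0.0747), and in the gill line it had 1.31 ± 1.43. The gene slc39a6 was lower in the gut line (-0.87 ± 0.09) and by -0.35 ± 0.10 in the gill line, where slc39a14 had -0.36 ± 0.12. With centring on the more expressed genes neither of the last pair passed in the gill line (adjusted p = 0.246 and 0.306). Of the exporter genes in the gut line, slc30a9 had -0.44 ± 0.10, which did not pass with that centring, and slc30a5 had 0.33 ± 0.09, which was -0.69 as deposited.

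Monoamine carriers were slc6a4b, one copy of the serotonin transporter gene, and slc22a2, an organic cation carrier gene listed in the gut line only. With methylmercury the level of slc6a4b in the gill line was 5.17 in control and 5.00, 4.04, 5.14, 4.36 and 4.07. The liver line had 5.34 and 4.99, 5.26, 5.13, 5.50 and 5.32, and the gut line 6.56 and 6.46, 6.21, 5.82, 6.51 and 5.75. The levels moved up and down without an order by concentration. The changes at 250 were -0.20 ± 0.53, 0.75 ± 0.39 and 0.20 ± 0.40, and none passed (adjusted p = 0.804, 0.196 and 0.704). As deposited, the liver and gut changes were -0.02 and -0.81. The gut level of slc22a2 was 4.52 in control and 4.50, 4.81, 3.79, 2.75 and 3.55. Its change at 250 was 0.05 ± 0.43, and that of -1.20 at 125 did not pass (adjusted p = 0.116). The authors' F-test, on fold changes as deposited, passed it (adjusted p = 0.0261). The F-test relative to the median gene did not (adjusted p = 0.143). The authors' benchmark dose for it was 17 (6.97 to 27.8), on a falling curve.

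Carriers of vitamins had members at both ends of the range. The riboflavin carrier gene slc52a3 went from 2.61 in control to 3.95, 3.69, 2.96, 5.25 and 6.29 in the gill line. The liver line went from 4.34 to 5.01, 4.05, 4.15, 5.23 and 6.08, and the gut line from 5.71 to 4.84, 5.47, 5.55, 6.53 and 7.83. All 3 were highest at 250, with changes of 4.58 ± 0.64, 2.52 ± 0.36 and 3.13 ± 0.15. The gill control was near the level of 0 counts, so the gill change rests on few control counts. The gene slc5a6b, for a sodium-dependent carrier of biotin and pantothenate, was higher by 1.56 ± 0.16, 1.34 ± 0.21 and 2.44 ± 0.17. Its copy slc5a6a was higher by 1.87 ± 0.17 in gill and 1.52 ± 0.29 in liver.

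The gene slc49a4 was the one member lower in each line. Its level went from 7.16 in control to 7.11, 6.84, 6.95, 6.16 and 5.02 in the gill line, from 8.06 to 7.99, 7.67, 7.11, 6.84 and 5.28 in the liver line, and from 9.02 to 8.98, 8.87, 8.35, 7.60 and 6.09 in the gut line. The changes were -1.25 ± 0.22, -1.99 ± 0.43 and -1.92 ± 0.13. The folate carrier gene slc46a1 was lower in liver (-1.30 ± 0.24) and gut (-1.17 ± 0.32), though in gut not with centring on the more expressed genes (adjusted p = 0.0516), and its -0.82 ± 0.29 in gill did not pass (adjusted p = 0.0626).

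**Figure D3:**
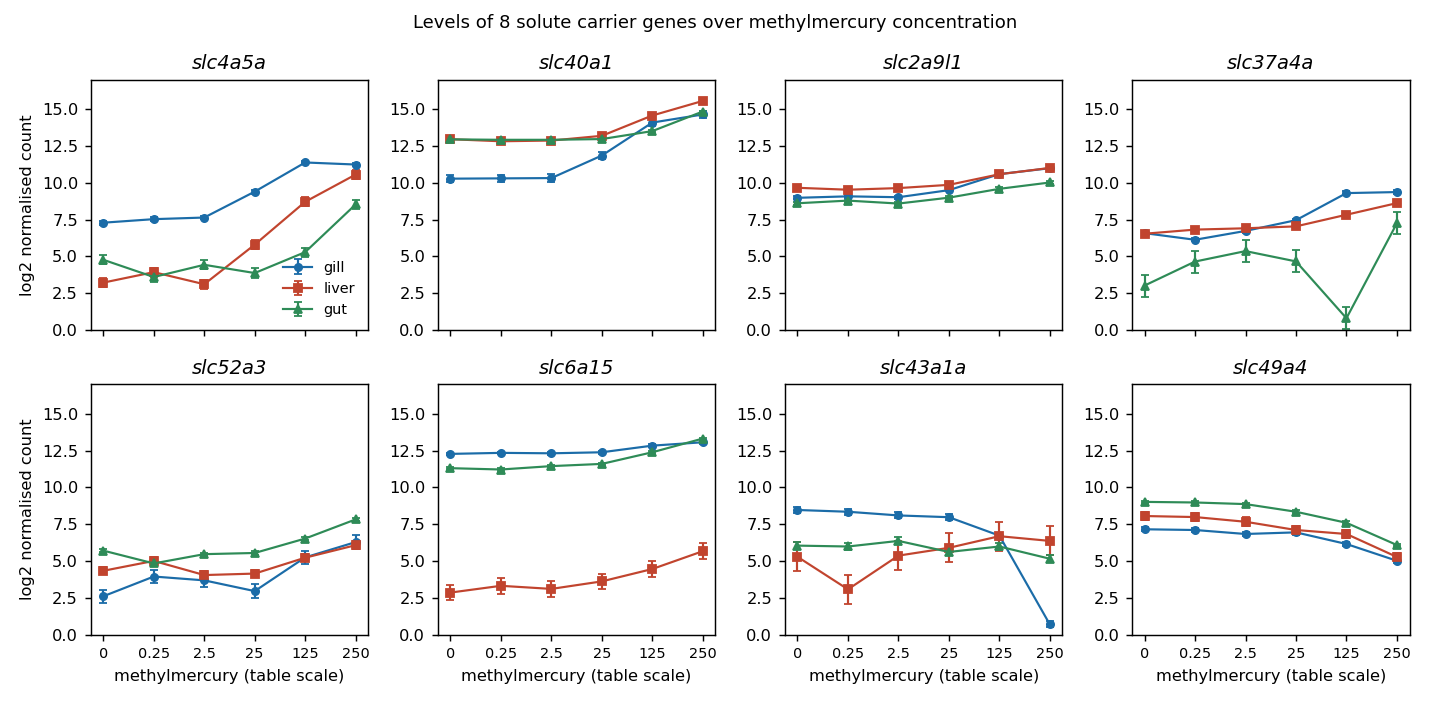
Mean log2 normalised count of 8 solute carrier genes in control and at 5 methylmercury concentrations (evenly spaced, table scale) in the gill (circles), liver (squares) and gut (triangles) lines, with bars of 1 SE recovered from the authors' tables. In the gill line slc43a1a falls from 6.73 to 0.70 between 125 and 250, and slc4a5a ends between 8.53 and 11.24 in the 3 lines.

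Mitochondrial carriers, the largest class, had 3 of 21 genes higher (17% of all genes) and 4 lower (19.6%) in the gill line. In liver 6 of 19 were higher (15.7%) and 3 lower (13.3%). In gut 2 of 16 were higher (21.9%) and 7 lower (25.9%). The adenine nucleotide carrier gene slc25a5 was higher in gut (1.73 ± 0.07) and liver (1.30 ± 0.11), with levels of 15.11 and 14.01 in control and 15.82 and 14.53 at 250. The acylcarnitine carrier gene slc25a20 was lower in gut (-1.03 ± 0.10) and liver (-0.52 ± 0.15), the latter not with centring on the more expressed genes (adjusted p = 0.0817). The ornithine carrier gene slc25a15b was lower in gut (-1.28 ± 0.15). The gene slc25a26, for the carrier of S-adenosylmethionine, was lower in gill (-0.96 ± 0.31), though not with that centring (adjusted p = 0.0992), and higher in liver (1.24 ± 0.17), though not as deposited (adjusted p = 0.0579).

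The gene slc25a29, for a carrier of basic amino acids, in the liver line went from 6.09 in control to 6.34, 5.66, 4.74 and 4.98, and to 0 counts at 250. Against the floor its change was -1.68 or lower, and the fitted value passed (adjusted p = 0.00084). The gut line was also at 0 counts at 250, where the fitted change did not pass (adjusted p = 0.0996). The gill change of 1.64 ± 1.56 did not pass (adjusted p = 0.458).

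The remaining classes held further large changes. The organic anion carrier gene slco1d1 in the gut line went from 0 counts in control (level 1.07) to 1.83, 1.74, 2.93, 4.57 and 6.74, a change of at least 3.88. The gill line went from 3.22, near the level of 0 counts, to 3.21, 3.07, 3.08, 1.52 and 5.72, a change of 3.39 ± 0.71. The nucleotide sugar carrier gene slc35d2 went from 0 counts in the gill control to 3.64, 4.01, 2.17, 4.88 and 5.70, a change of at least 3.14, was higher by 2.35 ± 0.74 in the gut line, though not as deposited (adjusted p = 0.153), and had -0.24 ± 0.40 in the liver line. Another nucleotide sugar carrier gene, slc35c2, was lower in gill (-1.51 ± 0.25) and gut (-2.19 ± 0.14). The organic anion carrier gene slc22a13a, at 0 counts in the gill control, had a change of at least 1.45. For slc22a17 in the liver line, at 0 counts at 250, the floor left no fold to give.

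The gene slc45a2, known from pigment cells, was higher in the gill line by 3.91 ± 0.40, and in the gut line, at 0 counts in control and at 125, by at least 1.36. The monocarboxylate carrier gene slc16a5a went from 9.45 in control to 9.43, 9.30, 9.05, 7.67 and 6.31 in the liver line and from 7.16 to 7.43, 7.39, 6.51, 4.69 and 2.39 in the gut line. Its changes were -2.36 ± 0.36 and -3.75 ± 0.62, and in the gill line -0.31 ± 0.59. The vesicular nucleotide carrier gene slc17a9b was higher by 1.74 ± 0.11, 1.74 ± 0.19 and 1.64 ± 0.10 in gill, liver and gut, and the organellar sodium proton exchanger gene slc9a7 by 2.21 ± 0.13, 1.30 ± 0.23 and 0.91 ± 0.21. The lysosomal carrier genes slc15a4 and slc66a1 were higher in the liver line by 2.16 ± 0.21 and 2.02 ± 0.14. The nucleoside carrier gene slc29a3 was lower in gut (-1.65 ± 0.45) and higher in gill (0.43 ± 0.14, or -0.46 as deposited). Of the non-carriers, slc9a3r1a was higher in gut (3.35 ± 0.86) and slc7a6os in liver (1.53 ± 0.18), though the authors' F-test passed neither (adjusted p = 0.241 and 0.0518). The latter is named for lying opposite to slc7a6, a position that was not checked in trout. Whether reads were counted by strand is not given in the sources used here.

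Between lines, the change at 250 differed past the test for 21 of 70 carriers listed in both gill and liver (30%, beside 11.6% of all genes), for 24 of 74 in gill and gut (32.4%, beside 17.5%) and for 18 of 73 in liver and gut (24.7%, beside 19.3%). The liver change was the higher one in 12 of the 21, the gill change in 16 of the 24, and the liver change in 11 of the 18. This split by direction was not made for all genes, so it cannot be called particular to carriers. Each table was normalised separately, so levels set across lines are not on a common scale, while the changes are each against the line's own control.

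The authors' deposited tables also give benchmark doses, with a lower and an upper bound for most carriers listed: the concentration where a gene's curve reaches a chosen distance from its control. They are described here without a test, and use fold changes as deposited. For the gill line 26 carriers in the authors' deposited table passed the curve criteria (26.8% of members, beside 21.4% of all genes), with a median benchmark dose of 28.5, beside 23.1 for all genes. For the liver line it gave 13 carriers (12.7%, beside 15%) and a median of 17.2, beside 28.2, and for the gut line 31 carriers (30.7%, beside 28.5%) and 25.2, beside 26.4. Rising curves made up 7 of the 26 (26.9%, beside 20.2% of all passing genes), 5 of the 13 (38.5%, beside 19.4%) and 6 of the 31 (19.4%, beside 15.7%).

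Among carriers that passed the curve criteria, the lowest benchmark dose in the authors' deposited table was that of slc4a5a in the gill line, at 1.62 with bounds of 0.857 and 2.42. The next in the gill line were slc40a1 at 4.23, slc2a9l1 at 4.37, slc25a24 at 7.64 and slc25a17 at 8.47. The bile salt carrier gene slc10a2, which did not pass those criteria, stands in the authors' deposited table for that line at 2.35, without a lower bound. In the authors' deposited table for the liver line the lowest were slc7a5 at 4.51 (0.672 to 15.1), slc37a4a at 6.55, slc46a1 at 6.58, slc4a5a at 7.40 (4.82 to 10.4) and slc44a5b at 7.67. In that for the gut line they were slco1d1 at 2.64 (1.17 to 5.32), slc6a15 at 6.07, slc25a20 at 8.85, slc38a9 at 9.10 and slc31a2 at 11. For slc4a5a the gut value was 98.4 (68.1 to 121), outside the bounds of both other lines. For slc43a1a the gill line had 61.3 (42.3 to 74.7).

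**Figure D4:**
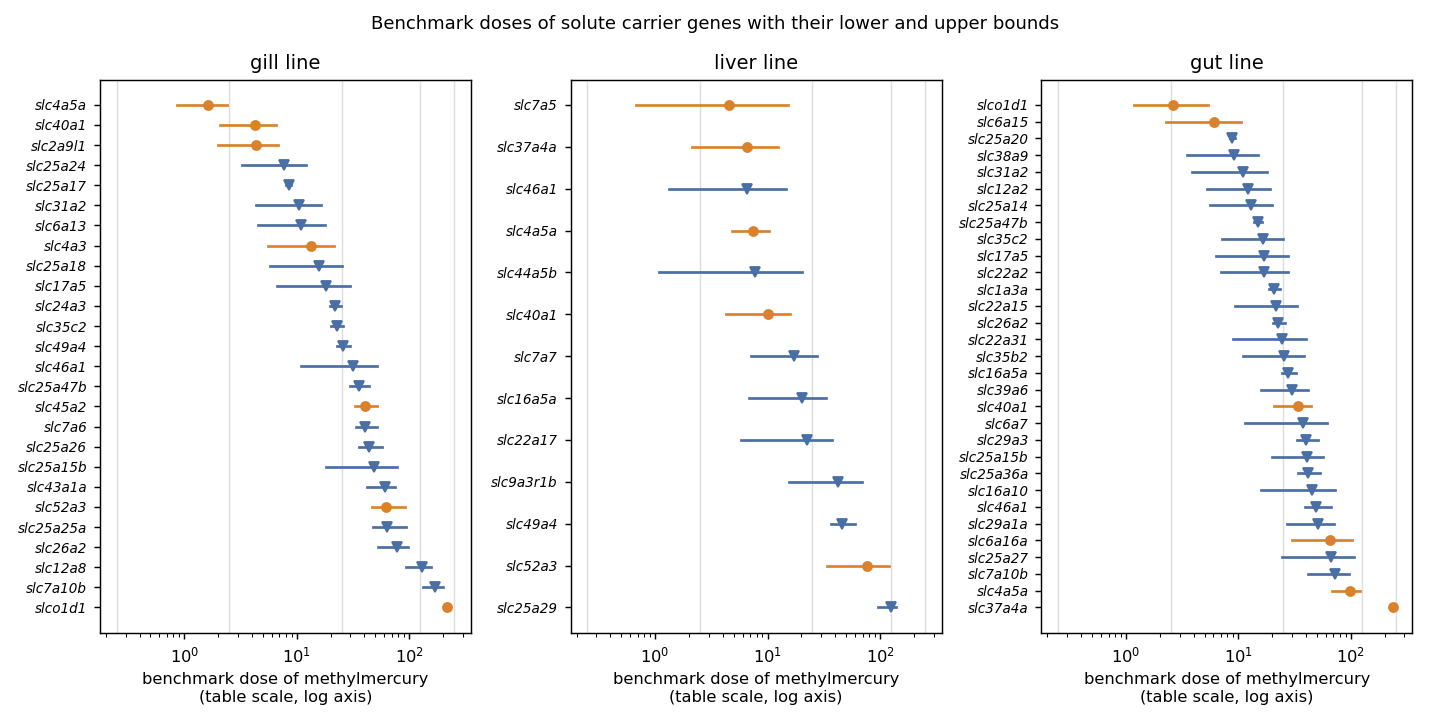
The authors' benchmark doses of methylmercury (log axis, table scale) for solute carrier genes that passed the curve criteria, with lines from lower to upper bound, orange circles for rising and blue triangles for falling curves, and grey lines at the tested concentrations. In the gill line slc4a5a is lowest at 1.62, and in the gut line it stands at 98.4.

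With fluoxetine no carrier passed a main test. The authors' F-test took its spread from the 2 controls alone, ctrl and H2O, moderated over genes. It had 2.43, 2.3 and 2.27 degrees of freedom in gill, liver and gut. Its unadjusted shares thus rest on the gap between the controls, and its lack of calls says little. The authors' F-test passed 0 of all genes in each line (0%), and at an unadjusted p under 0.05 it held 16 of 91 members in the gill line (17.6%, beside 11.5% of all genes), 8 of 108 in the liver line (7.41%, beside 10.4%) and 8 of 99 in the gut line (8.08%, beside 10.1%). A limma trend on log10 of the concentration over the 11 libraries of a line also passed no gene (0%). At an unadjusted p under 0.05 it held 3, 8 and 6 members, beside 5.46%, 6.44% and 6.57% of all genes, and the smallest adjusted p of a member was 0.872, 0.492 and 0.67. At 1000 ppb 77 of 91, 100 of 108 and 90 of 99 members were within 1 log2 unit of the control mean, a count that was not made for all genes.

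A limma trend on the concentration itself passed 1 member, slc45a2 in the liver line, beside 0.123% of all genes there, 0.00907% in the gill line and 0.161% in the gut line. Its level was 10.47 in control, with controls 0.05 apart, and 10.44, 10.60, 10.50, 10.49, 10.52, 10.49, 10.66, 10.85 and 11.20 from 1.6 to 1000 ppb. The 3 highest concentrations were the 3 highest libraries. The slope was 0.72 ± 0.09 log2 units per 1000 ppb (adjusted p = 0.0143, unadjusted p = 6.37e-06), and on the log10 scale it was 0.18 ± 0.05 with adjusted p = 0.562. The trend on the concentration itself was not refitted without single libraries. At 1000 ppb slc45a2 differed from control by 0.73 in liver, -0.63 in gill and -0.29 in gut.

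The serotonin transporter gene slc6a4b, whose protein fluoxetine blocks, had a level of 4.63 in the gill control and 5.16, 5.10, 6.01, 5.47, 5.59, 4.89, 5.09, 4.94 and 4.57 from 1.6 to 1000 ppb. The liver line had 5.35 in control and 4.86, 5.96, 5.19, 5.41, 6.15, 4.94, 4.77, 5.83 and 5.80. The gut line had 6.89 in control and 6.17, 6.68, 6.21, 5.77, 6.64, 6.41, 6.67, 6.57 and 6.31. All 9 treated gut libraries were below the control mean, whose controls were 0.41 apart. In the gill line the treated libraries were above the control mean of 4.63, except that at 1000 ppb, at 4.57. The liver line lay on both sides of its control mean.

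The slope of slc6a4b per 10-fold concentration was -0.04 ± 0.14 in the gill line, 0.09 ± 0.15 in the liver line and -0.07 ± 0.11 in the gut line (limma trend, adjusted p = 0.977, 0.952 and 0.937). The gene slc43a1a had slopes of -0.03 ± 0.05, 0.02 ± 0.68 and 0.20 ± 0.40. It had, for the liver line, 0 counts in the libraries at 8 and 40 ppb and levels of 5.91 to 6.77 in the others, and in the gut line 0 counts at 100 ppb. The gene slc4a5a had slopes of 0.21 ± 0.15, -0.04 ± 0.19 and -0.06 ± 0.15. None of these passed (adjusted p of at least 0.927), and the sign of several turned when 1 library was left out.

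By class, the fluoxetine slopes of zinc carriers lay between -0.05 and 0.23 per 10-fold concentration over the 3 lines. Those of bicarbonate carriers lay between -0.37 and 0.31, those of sugar carriers between -0.56 and 0.59 and those of amino acid carriers between -0.36 and 0.82. Among carriers that were higher with methylmercury in each line, slc2a9l1 had fluoxetine slopes of 0.02 ± 0.05, 0.03 ± 0.04 and 0.16 ± 0.04, the last with an unadjusted p of 0.00252 (limma trend, adjusted p = 0.67). The gene slc40a1 was listed for fluoxetine in the gill line only, with 10.38 in control and 11.03 at 1000 ppb, a slope of 0.18 ± 0.06 (adjusted p = 0.908) or 0.73 ± 0.14 per 1000 ppb (adjusted p = 0.11). In the authors' deposited fluoxetine tables of benchmark doses, slc25a34 in the gill line and slc4a4a in the gut line were the carriers listed, and neither passed the curve criteria.

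**Figure D5:**
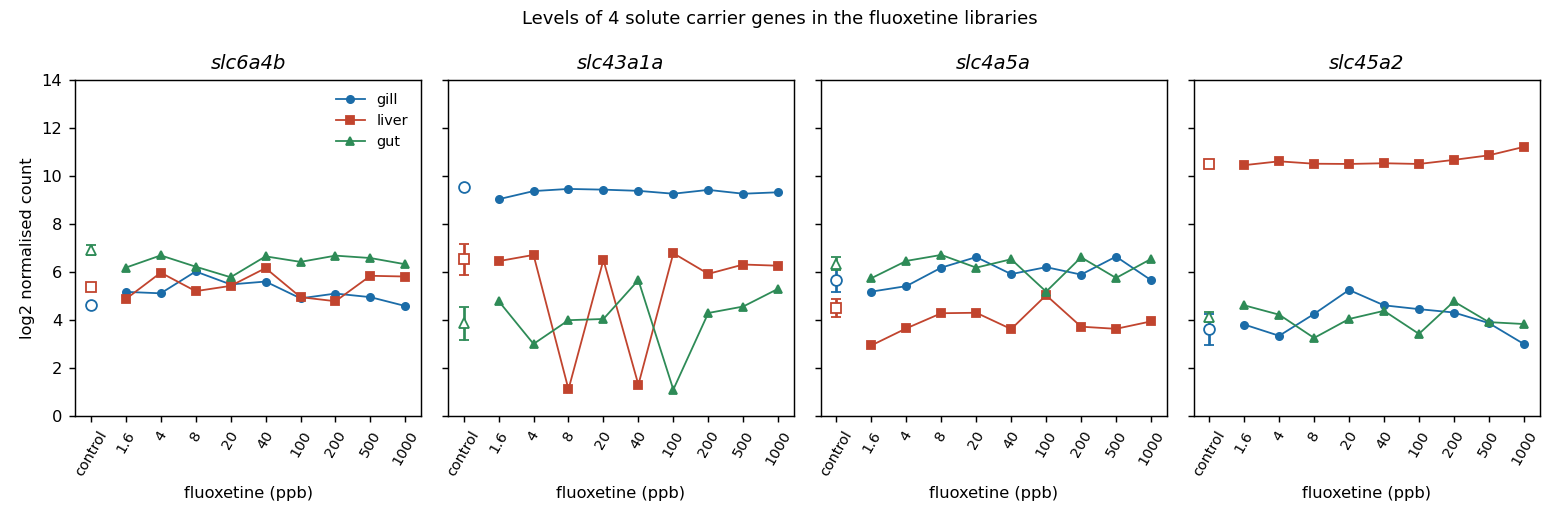
Log2 normalised count of 4 solute carrier genes in each fluoxetine library (filled points, evenly spaced by concentration) and in control (open points with a bar spanning both controls) in the gill, liver and gut lines. In the liver line slc45a2 is highest at 1000 ppb, at 11.20, and slc43a1a has 0 counts at 8 and 40 ppb.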

How the data were processed

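RNA was sequenced as paired ends from 69 libraries. Per the submitters' processing notes, the authors used fastp and Salmon; versions, genome build and strand setting are not given in the sources used here. The deposited tables hold log2 fold changes and log2 mean expression, p-values of an F-test and of curve fits, F statistics and fit scores, and benchmark doses with other curve values, all made by the authors; counts per library were not used here. Column names match limma output, per the file headers, without naming it.

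Control means, group means, moderated residual variance and degrees of freedom were recovered from mean, fold changes, F and p in R 4.3.3, checked on simulated data. Methylmercury contrasts were taken relative to the median gene. Line differences used Satterthwaite degrees of freedom. Fluoxetine libraries were fitted with limma 3.58.1. P-values were Benjamini-Hochberg adjusted over all genes of a table. Values were taken as log2 of normalised counts with an offset of 0.5, and a group at the table's minimum as 0 counts. This offset was assumed and not tested, and the estimated reads and the bounds rest on it. Bounds use 3 counts per library, cover counting error only and were set for groups at 0 counts, not for groups near it. Symbols came from RefSeq, assembly USDA_OmykA_1.1, by gene ID, and every ID matched.

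Named genes were slc43a1a, slc4a5a and slc6a4b, the class members, the 8 largest changes each way per line, the 5 lowest benchmark doses and the 5 largest line differences. Others were named after their values were seen. Members, classes and lists were chosen with earlier results of these data known. Alternatives were other centrings, a filter on low expression, the concentration scale, left-out libraries and benchmark dose filters.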

Additional observations from a re-analysis of the deposited data

Results flagged for a closer look

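For each pair of lines, the 5 largest fitted differences in the change at 250 of methylmercury relative to the median gene, among those that passed the test of the difference with Benjamini-Hochberg adjustment, were these. Between gill and gut, slc43a1a differed by -7.00 (adjusted p = 2.36e-07), slc6a16a by -3.75 (adjusted p = 0.0476), slc35d2 by 3.59 (adjusted p = 0.0375), slc16a5a by 3.44 (adjusted p = 0.0129) and slco1d1 by -3.29 (adjusted p = 0.0271). Between gill and liver, slc43a1a differed by -8.74 (adjusted p = 0.0071), slc35d2 by 6.18 (adjusted p = 0.00193), slc25a29 by 6.12 (adjusted p = 0.0459), slc4a5a by -3.28 (adjusted p = 0.00225) and slc7a10b by -2.81 (adjusted p = 0.0202). Between liver and gut, slc4a5a differed by 3.34 (adjusted p = 0.00224), slc7a10b by 2.06 (adjusted p = 0.02), slc5a5 by -1.98 (adjusted p = 0.014), slc35c2 by 1.90 (adjusted p = 3.97e-05) and slc66a1 by 1.84 (adjusted p = 2.63e-05).

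Groups at 0 counts enter these fitted differences. With such groups at the floor of 3 counts per library, the gill difference of slc43a1a was -4.20 from gut and -5.94 from liver, that of slc35d2 was 0.79 from gut and 3.38 from liver, that of slco1d1 from gut was -0.49, and that of slc25a29 from liver was 3.32. Without the differences of slc35d2 and slco1d1 between gill and gut, the next there, with no group at 0 counts in control or at 250, were slc27a6 at 3.24 (adjusted p = 0.00979) and slc12a8 at -2.72 (adjusted p = 0.00128), both named after their values were seen. The differences of slc4a5a keep its liver control, which was near 0 counts, at its estimate. For slc7a10b the liver change of 1.08 had not passed on its own, and neither had the gut change of 0.98 of slc5a5, a gene for an iodide carrier.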

How the results depend on the processing

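An F-test on changes relative to the median gene passed 38 members in gill and 30 in liver. With fold changes as deposited, lower members numbered 30, 26 and 48 at 125 and 41, 39 and 51 at 250 in gill, liver and gut; this follows from the fall of the median gene. Centred on genes above the median mean expression, the gut line had 15 lower members at 250 (17.9% of all genes). It had 3 at 125, where the share of all genes was not computed for that centring. A trend on the concentration itself passed 1 member in liver. The other 91 counts and medians tried stayed within the set limits. Changes at 250 of members that passed, with slc43a1a, slc4a5a and slc6a4b in every line, were compared under each alternative setting. A change thus counts once per setting. Of these comparisons 374 kept direction and call, and 37 kept direction but no longer passed. The filter on low expression left the change of a kept gene as it was, so it could alter the call only. The remaining 9 turned as deposited: in gill slc29a3 (-0.46) and slc2a12 (-0.24), in liver slc6a4b (-0.02), and in gut slc30a5 (-0.69), slc48a1a (-0.63), slc38a6 (-0.31), slc9a7 (-0.10), slc43a1a (-0.89) and slc6a4b (-0.81). Of all listed members that had not passed, the sign turned as deposited for 18 of the gill line's 53, 19 of the liver line's 64 and 13 of the gut line's 42, among them slc37a2 in liver (-0.02) and slc4a4a (-0.39), slc5a5 (-0.04) and slc22a2 (-0.96) in gut.

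Fluoxetine slopes without 1 library ranged from -0.05 to 0.07 for slc6a4b in gill, -0.20 to 0.13 for slc43a1a in liver, -0.03 to 0.41 for slc43a1a in gut, -0.17 to 0.01 for slc4a5a in liver and -0.16 to 0.02 for slc4a5a in gut, which had 0.08 per 1000 ppb on the concentration itself. Without libraries under 3 M reads, an alternative chosen after seeing the data, slc6a4b in gill had 0.14. None of these slopes passed under any setting run, so their signs carry no direction.

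No paired analysis was possible because single methylmercury libraries were not recovered and fluoxetine has 1 library per concentration; for the same reason no methylmercury replicate was left out. Pairs of libraries and depths under 3 M reads limit what low carriers can show.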

Other observations

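Fluoxetine libraries differed in how many carriers had 0 counts. In the gill line 14 of 91 members had 0 counts in the library at 8 ppb, which had 1.83 M estimated reads, 7 in that at 1.6 ppb with 2.56 M, and 1 in that at 20 ppb with 4.71 M. The gut library at 1.6 ppb, with 7.37 M, had none of 99. The liver library at 40 ppb, with 3.88 M, had 5 of 108 at 0, and that at 100 ppb, with 3.12 M, had 2. In the gill line slc25a36a had 0 counts at 4 ppb and levels of 4.64 to 5.55 in the other treated libraries, while its controls were 4.44 apart. In the liver line the gene slc6a11b, for a carrier of the GABA family, had 0 counts at 40 and 1000 ppb against a control mean of 5.52. The median level of the carriers in methylmercury controls was 7.29, 7.91 and 8.15 in gill, liver and gut, beside 8.74, 8.80 and 9.27 for genes with a symbol.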
